A study of Mus musculus with 18 samples.

Results

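The contrast described here sets the effect of a ketogenic diet in mouse heart against its effect in mouse kidney. It is the log2 fold change of ketogenic over chow in heart minus the same fold change in kidney, taken for every gene from 1 model of 4 organ-by-diet groups. Its members are the 12 heart and kidney libraries of an 18-library RNA-seq series, 3 in each group, and 15103 of the 22609 listed genes had enough counts to be tested. All mice were wild-type C57BL/6J, an inbred laboratory strain. Ketogenic mice ate 90% fat, 9.7% protein and 0.3% carbohydrate by the labels from 4 weeks of age for 21 days, and chow mice ate standard chow over the same period. The groups were ketogenic heart, chow heart, ketogenic kidney and chow kidney. The labels call the 3 libraries of a group biological replicates and give no statement that a heart and a kidney came from 1 animal. By its title the study is about senescence that depends on p53. The contrast asks which genes responded to the diet in one organ differently from the other.

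On a diet nearly free of carbohydrate, fat becomes the main fuel, and the liver turns part of it into ketone bodies that other organs burn. The heart is a muscle that already runs mostly on fatty acids, with long-chain fatty acids entering mitochondria through the carnitine shuttle and being cut down by beta-oxidation, and with the nuclear receptor PPAR-alpha known as a driver of these genes. The kidney also burns fat, chiefly in its proximal tubule, which in addition carries out gluconeogenesis, drug and steroid hydroxylation and the recovery of filtered solutes.

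The total count of a library lay between 16135276 and 22767878. Markers of cardiomyocytes, 7 genes, summed to 80555, 79925 and 77146 CPM (counts scaled to effective library size) in ketogenic hearts, against 67338, 71588 and 68676 CPM in chow hearts. In kidneys they summed to between 6.31 and 11.95 CPM. None of the 7 passed the diet test in heart, and their part in the heart changes was not tested. Proximal tubule markers, 6 genes, summed to between 21075 and 33247 CPM in kidneys and to between 14.5 and 27.7 CPM in hearts. Ketogenic heart replicates 1 and 2 differed by less than the other pairs, close to sampling noise. Their median chi-square per gene was 0.665, against 0.455 from counting alone and 1.23 to 4.19 in the other pairs. They were counted as 1 sample in the plotted group means. The model kept them as 2 libraries, so fold changes, SEs, intervals and adjusted p treat them as separate replicates unless the pair is said to be summed. Each lead count is also given with their counts summed. Chow heart replicate 3 carried atrial and fat-cell transcripts, with a summed level of 7 atrial genes of 15142 CPM against at most 207.7 CPM in the other hearts. Ketogenic kidney replicate 1 stood apart from its group, and the number of called differences without it is given below. In tissue RNA, fewer cells of a type and less RNA per cell cannot be told apart.

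The diet effect differed between heart and kidney for 707 genes, 4.68% of those tested (edgeR quasi-likelihood test, Benjamini-Hochberg adjusted p under 0.05). The difference was positive, so that the effect was higher in heart, for 398 genes (2.64%) and negative for 309 (2.05%). The diet itself changed 3563 genes in heart, 23.6%, and 1555 in kidney, 10.3%. Most of the 707 genes passed the diet test in 1 organ alone: 457 in heart and not in kidney, and 129 in kidney and not in heart. A further 79 genes, 0.523% of those tested, were called in opposite directions, 37 of them up in heart and down in kidney and 42 down in heart and up in kidney. The remaining genes comprised 25 called in the same direction, of which 24 moved further in heart, and 17 called in neither organ. Among called genes with a mean of at least 1 CPM in each organ, the size of the difference had a median of 0.78 on the log2 scale and a smallest value of 0.32.

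**Figure D1:**
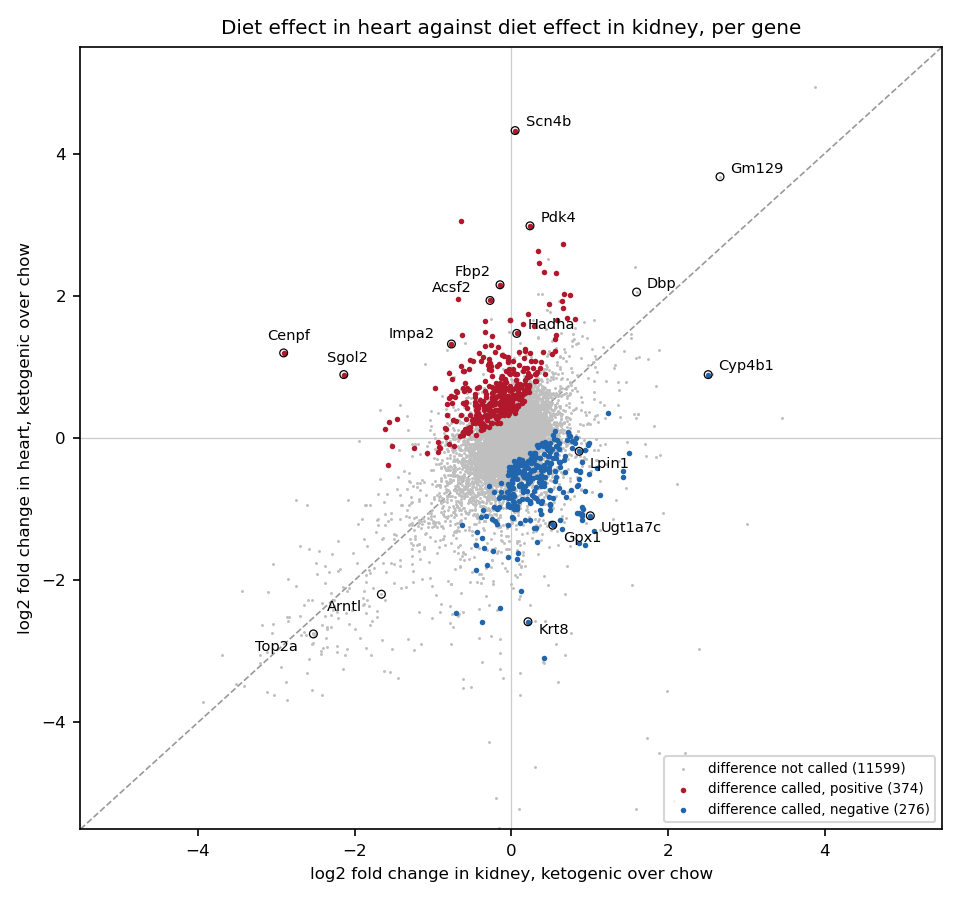
Log2 fold change of ketogenic over chow in heart (vertical axis) against that in kidney (horizontal axis), for the 12249 genes with a mean of at least 1 CPM in each organ; the dashed line marks equal effects and 4 genes lie outside the axes. Genes whose difference was called sit off the line, 374 above it (red) and 276 below it (blue), with Scn4b and Pdk4 high on the vertical axis near 0 in kidney, while Gm129, Dbp, Arntl and Top2a moved in the same direction in both organs.

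Most diet responses were not shown to differ. Of the 765 genes called in both organs, 686 moved in the same direction (89.7%), 283 up and 403 down, and the difference was called for 104 of the 765. Among 2798 genes called in heart and not in kidney, the difference itself was not called for 2341, so a call in 1 organ alone does not show an organ difference. Among the 12249 genes of at least 1 CPM in each organ the difference was called for 650 (5.31%). For these genes, half-widths of the 95% intervals of the difference had a median of 0.35 on the log2 scale, or 1.28-fold. The adjusted test asks for more than that width, so a difference that was not called is not shown to be absent. With ketogenic heart replicates 1 and 2 summed into 1 library, 361 genes passed, all of them among the 707. Without chow heart replicate 3 and ketogenic kidney replicate 1 together, 1637 genes passed, among them 668 of the 707 (94.5%).

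**Figure D2:**
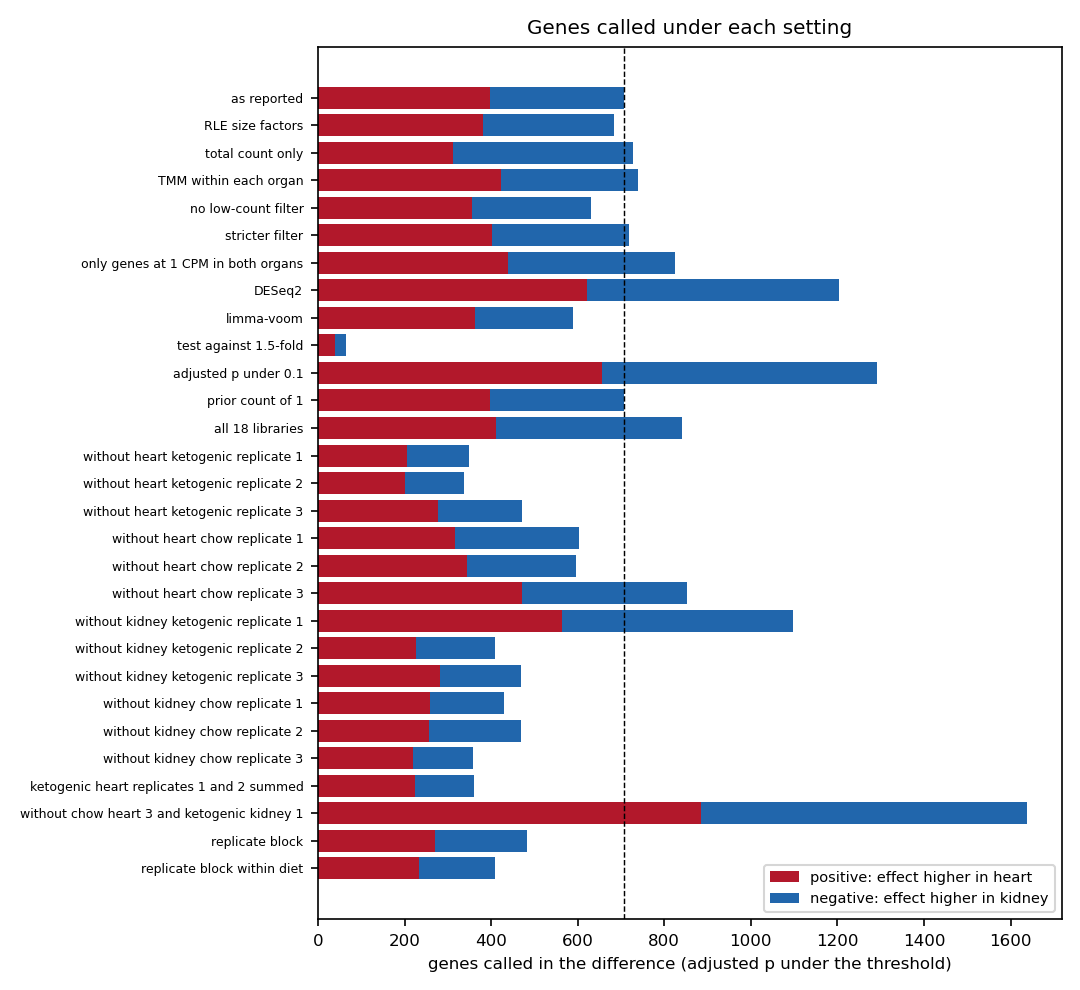
Number of genes called in the difference under each setting, split into positive (red) and negative (blue) differences, with the dashed line at the reported 707. Leaving out 1 library gave between 338 genes (without ketogenic heart replicate 2) and 1098 genes (without ketogenic kidney replicate 1).

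Genes of fatty acid oxidation rose in heart, and for 7 of its 22 mitochondrial genes the rise was shown to exceed that in kidney. Of these 22 beta-oxidation genes, all tested, 18 rose in heart (12.5% of all genes tested did) and 8 in kidney (5.16% of all), and all 7 called differences (31.8%) were positive. Their median log2 difference was 0.41, from medians of 0.90 in heart and 0.30 in kidney, beside a median difference of -0.02 over all genes tested. Of 10 genes of the carnitine shuttle and malonyl-CoA, 5 were called (50%), all positive, with a median difference of 0.48. Of all genes tested, 4.68% were called and 2.64% were called positive.

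Hadha and Hadhb encode the 2 subunits of the mitochondrial trifunctional protein, which carries out the last steps of long-chain beta-oxidation. Hadha had 3644, 3642 and 3558 CPM in ketogenic hearts, against 1421, 1449.8 and 1039 CPM in chow hearts. Kidney levels of Hadha were 199.8, 215 and 224 CPM on the ketogenic diet, against 190.0, 209 and 209.7 CPM on chow. All ketogenic hearts stood above all chow hearts, while the kidney groups overlapped, and the log2 difference was 1.40 (SE 0.17, adjusted p = 0.00101). Hadhb had 2171, 2190.3 and 2277 CPM in ketogenic hearts, against 1050.3, 995 and 744 CPM in chow hearts. Kidney levels of Hadhb were 139, 148 and 142 CPM on the ketogenic diet, against 125, 123 and 130.0 CPM on chow, a change that did not pass (adjusted p = 0.35), and the log2 difference was 1.07 (SE 0.16, adjusted p = 0.00365). In heart the ketogenic levels were 2.77-fold (Hadha) and 2.38-fold (Hadhb) those on chow. The genes lie head to head on chromosome 5 with their starts 273 bases apart in the RefSeq promoter table (build GRCm38.p6), so that the stretch upstream of Hadhb is also the stretch upstream of Hadha on the other strand. It is shown because both genes moved together in heart, read along the Hadhb strand (+) at chr5:30155003-30155252 with no base in capitals.
Hadhb upstream: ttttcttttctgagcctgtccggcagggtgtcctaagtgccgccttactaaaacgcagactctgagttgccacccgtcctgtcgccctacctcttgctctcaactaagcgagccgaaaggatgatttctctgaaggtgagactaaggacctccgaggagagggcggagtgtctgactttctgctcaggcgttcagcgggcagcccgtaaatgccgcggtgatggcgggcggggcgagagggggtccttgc

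The largest difference in the pathway was that of Acsf2, which activates medium-chain fatty acids with coenzyme A. It had 131, 131 and 135 CPM in ketogenic hearts, against 35.3, 39.9 and 28.9 CPM in chow hearts. Kidney levels of Acsf2 were 27.7, 27.8 and 31.1 CPM on the ketogenic diet, against 31.8, 37.9 and 34.9 CPM on chow. Levels in ketogenic hearts were thus 3.82 times those in chow hearts, while the kidney groups lay apart in the other direction without passing the test (log2 fold change -0.27, adjusted p = 0.13). Its log2 difference of 2.21 (SE 0.15) had the smallest p of all genes (adjusted p = 2.43e-05). Acadm, the medium-chain acyl-CoA dehydrogenase, had a log2 fold change of 1.07 in heart and -0.04 in kidney (adjusted p of the difference 0.0106). Acaa2, the thiolase of the last step, had 1.12 in heart and 0.16 in kidney (adjusted p of the difference 0.00746). Decr1 and Ech1, which prepare unsaturated fatty acids for oxidation, rose in both organs and further in heart, with differences of 1.07 (adjusted p = 0.0185) and 0.96 (adjusted p = 0.0175).

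At the mitochondrial entry, the muscle isoform of carnitine palmitoyltransferase was called and the liver isoform was not, a contrast between isoforms that was not tested. Cpt1b, the muscle isoform, had 1538, 1552 and 1564 CPM in ketogenic hearts, against 725, 787 and 589.7 CPM in chow hearts. Kidney levels of Cpt1b were 53.4, 35.2 and 35.7 CPM on the ketogenic diet, against 36.3, 43 and 52.9 CPM on chow, where the groups overlapped, and its difference was 1.24 (SE 0.25, adjusted p = 0.0155). Cpt1a, the liver isoform, rose in heart (log2 fold change 0.98) and in kidney (0.62), and its difference of 0.35 was not called (95% interval -0.03 to 0.74, adjusted p = 0.29). Acacb makes the malonyl-CoA that inhibits carnitine palmitoyltransferase, and Mlycd breaks malonyl-CoA down. Both rose in heart, by 1.05 and 0.90; Acacb had -0.27 in kidney and Mlycd rose there by 0.44, with adjusted p of the differences of 0.0079 for Acacb and 0.0326 for Mlycd. Slc25a20, the carnitine-acylcarnitine carrier, had a difference of 0.78 (adjusted p = 0.0134) and Crat, carnitine acetyltransferase, of 0.80 (adjusted p = 0.0218). Acads, Acad11 and Slc22a5 (the carnitine importer) rose in both organs, with differences of 0.00 (95% interval -0.34 to 0.33), 0.03 (-0.35 to 0.40) and 0.06 (-0.28 to 0.40).

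**Figure D3:**
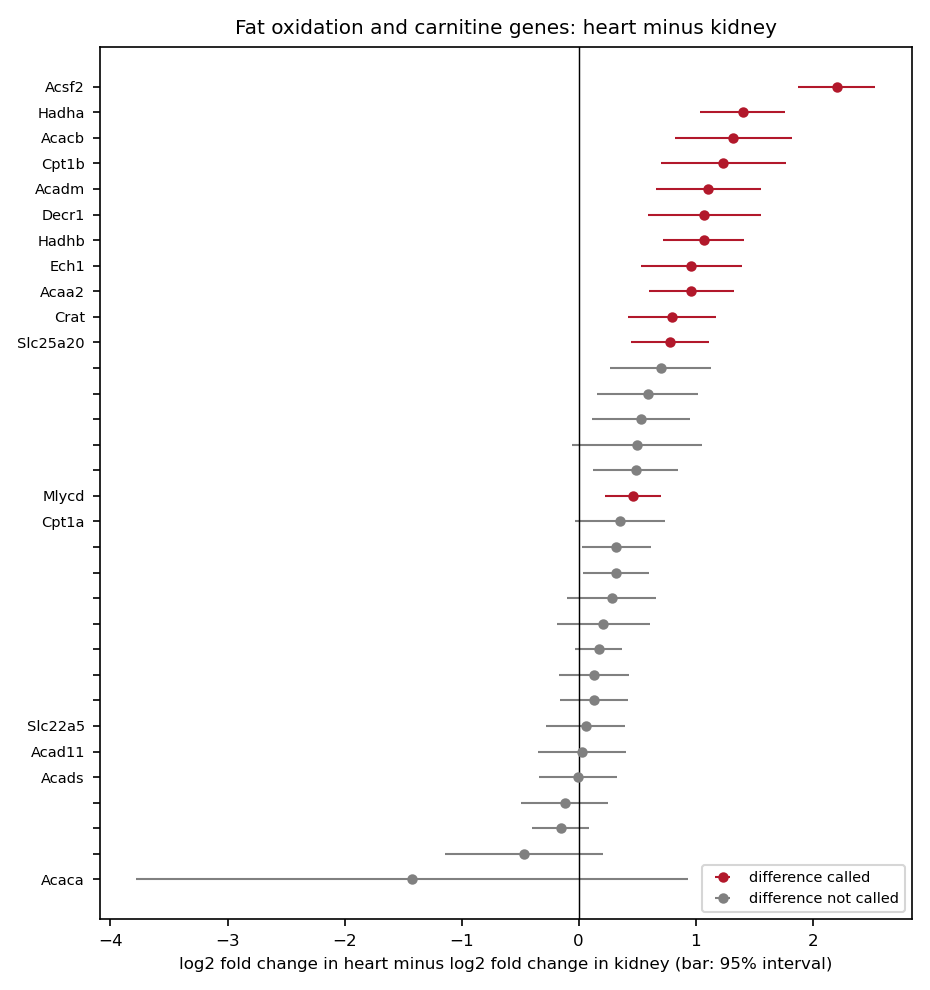
Log2 fold change in heart minus that in kidney for the 32 genes of mitochondrial beta-oxidation and of the carnitine shuttle and malonyl-CoA, ordered by value, with 95% intervals and with names for the genes described in the text. The 12 called genes (red) lie to the right of 0, from Mlycd at 0.47 to Acsf2 at 2.21; among the uncalled, Acaca is widest, with chow heart replicate 3 alone high in heart.

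Known targets of PPAR-alpha formed a list that shares members with the lists above. They gave 16 positive and 1 negative call among 41 tested genes (41.5%, beside 4.68% of all). Their medians were 1.07 in heart, 0.58 in kidney and 0.52 for the difference. Pdk4, the kinase that shuts off pyruvate dehydrogenase and so spares glucose, had 3117, 3178 and 2776 CPM in ketogenic hearts, against 365, 371 and 409.8 CPM in chow hearts. Kidney levels of Pdk4 were 20.9, 37.7 and 39.1 CPM on the ketogenic diet, against 23.5, 33.3 and 25.95 CPM on chow, and these groups overlapped. The diet effect on Pdk4 was thus 7.91-fold in heart and 1.18-fold in kidney, a log2 difference of 2.75 (SE 0.29, adjusted p = 0.000583). Acot1 and Acot2, thioesterases that release free fatty acids from coenzyme A, had differences of 2.07 (adjusted p = 0.00331) and 1.75 (adjusted p = 0.0058); these near-identical genes share reads under fractional counting, so each value is uncertain. Acsm5, a medium-chain acyl-CoA synthetase, had 13.3, 11.5 and 7.52 CPM in ketogenic hearts, against 2.06, 1.79 and 1.44 CPM in chow hearts. Kidney levels of Acsm5 were 127, 137 and 138 CPM on the ketogenic diet, against 91.9, 117 and 107 CPM on chow. Ketogenic hearts all stood above chow hearts although both were low, and the difference was 2.29 (SE 0.27, adjusted p = 0.001).

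Other targets gave no called difference. Angptl4, an inhibitor of lipoprotein lipase, rose in both organs and had 93.5, 93.4 and 58.9 CPM in ketogenic hearts, against 25.02, 25.5 and 27.5 CPM in chow hearts. Kidney levels of Angptl4 were 49.1, 60.5 and 74.4 CPM on the ketogenic diet, against 27.1, 33.9 and 27.2 CPM on chow, and the difference of the effects was 0.59 (95% interval 0.02 to 1.17, adjusted p = 0.24). Ucp3 rose 4.06-fold in heart and lay below 3 CPM in every kidney, so its difference of 1.62 had a wide interval (-0.22 to 3.47). The negative call was Aldh3a2, a fatty aldehyde dehydrogenase, which had 39.4, 40.97 and 40.4 CPM in ketogenic hearts, against 41.6, 43.7 and 41.9 CPM in chow hearts. Kidney levels of Aldh3a2 were 179.6, 261 and 280.5 CPM on the ketogenic diet, against 139, 144 and 128 CPM on chow. The heart groups lay close together (log2 fold change -0.08), the kidney groups were apart with the ketogenic diet higher, and the difference was -0.88 (SE 0.18, adjusted p = 0.0183). Of 29 peroxisomal genes, 4 were called (13.8%, beside 4.68% of all genes tested), all positive. They were Pex11a, which drives peroxisome division (1.16, adjusted p = 0.00522), Pex6 (0.52, adjusted p = 0.0181), Crat and catalase (Cat, 0.65, adjusted p = 0.0467). With ketogenic heart replicates 1 and 2 summed, Cat no longer passed (adjusted p = 0.0856).

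**Figure D4:**
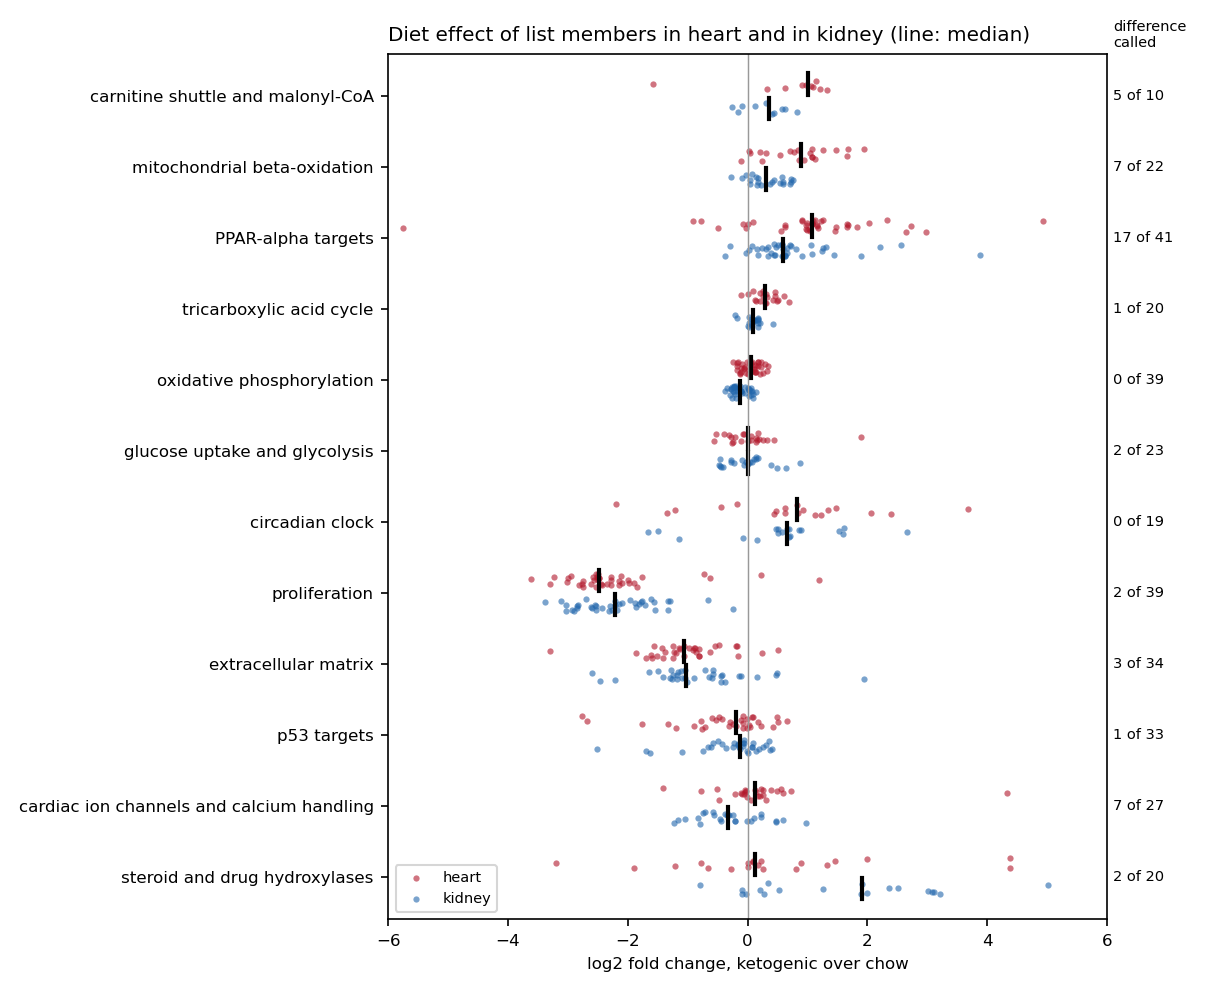
Log2 fold change of ketogenic over chow for the tested members of 12 gene lists, in heart (red, upper row of each list) and kidney (blue, lower row), with black lines at the medians; 1 value lies outside the axis, and the number of members with a called difference stands at the right. Heart lies to the right of kidney for the fat oxidation and carnitine lists, both organs lie together on the right for the clock genes and together on the left for proliferation and extracellular matrix genes.

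Of 12 genes of fatty acid uptake, 3 were called (25%, beside 4.68% of all genes tested), all positive. Fabp3, the heart fatty acid binding protein, had 4700.3, 4605 and 4773 CPM in ketogenic hearts, against 2534, 2455 and 1674 CPM in chow hearts. Kidney levels of Fabp3 were 62.5, 39.3 and 39.4 CPM on the ketogenic diet, against 56.6, 58.1 and 69.5 CPM on chow; the log2 difference was 1.46 (SE 0.27, adjusted p = 0.0107). Slc27a1, a fatty acid transport protein, rose by 1.45 in heart and by 0.57 in kidney (adjusted p of the difference 0.00971), and Vldlr, a lipoprotein receptor, by 0.79 in heart with -0.07 in kidney (adjusted p 0.00641). Gpam, which starts triglyceride synthesis at the mitochondrial surface, had 674, 671 and 665 CPM in ketogenic hearts, against 222, 251 and 190.2 CPM in chow hearts. Kidney levels of Gpam were 106, 139.7 and 178 CPM on the ketogenic diet, against 122, 143 and 117 CPM on chow. Its groups were apart in heart and overlapped in kidney, with a difference of 1.45 (SE 0.23, adjusted p = 0.00501). Lpin1, the phosphatidate phosphatase of the same route and a partner of PPAR-alpha, went the other way, with 325, 321 and 342 CPM in ketogenic hearts, against 389, 406 and 329.7 CPM in chow hearts. Kidney levels of Lpin1 were 105, 136 and 162 CPM on the ketogenic diet, against 68.96, 78.6 and 73.6 CPM on chow. Its heart groups overlapped, its kidney groups did not, and the difference was -1.05 (SE 0.19, adjusted p = 0.00836). Among the lipid droplet genes Plin3 was called (0.47, adjusted p = 0.0465, lost with the pair summed at 0.0858).

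Of 23 glucose uptake and glycolysis genes, 2 were called (8.7%, beside 4.68% of all genes tested), both positive, and the list's median difference was -0.07. These were Pfkfb1, which sets the level of a glycolytic activator (difference 1.41, adjusted p = 0.0336), and Pfkl (0.55, adjusted p = 0.0486); neither passed with the pair summed (adjusted p = 0.08 and 0.12). Pdk1, a second pyruvate dehydrogenase kinase, had 339, 349 and 373 CPM in ketogenic hearts, against 185, 177 and 149 CPM in chow hearts. Kidney levels of Pdk1 were 56.3, 42.6 and 36.9 CPM on the ketogenic diet, against 52.6, 53.3 and 59.4 CPM on chow, and the difference of the effects was 1.34 (SE 0.19, adjusted p = 0.00284). Pdk2 rose in both organs, by 0.57 in heart and 0.52 in kidney (difference 0.05, 95% interval -0.27 to 0.38). Fbp2, the muscle form of the gluconeogenic enzyme fructose bisphosphatase, had 86.2, 91.8 and 93.5 CPM in ketogenic hearts, against 21.96, 24.3 and 14.9 CPM in chow hearts. Kidney levels of Fbp2 were 14.7, 9.62 and 8.797 CPM on the ketogenic diet, against 10.5, 13.2 and 12.8 CPM on chow. Ketogenic hearts had 4.46 times the level of chow hearts, the kidney groups overlapped, and the difference was 2.30 (SE 0.28, adjusted p = 0.00173). Of 20 tricarboxylic acid cycle genes only Idh2 was called (0.67, adjusted p = 0.041, lost with the pair summed at 0.0893). This is 5%, beside 4.68% of all genes tested. Of 39 oxidative phosphorylation genes none was called, with 37 of the 39 differences above 0 and a median difference of 0.16. Their medians were 0.05 in heart and -0.13 in kidney. In heart 2 of them rose and 1 fell, and in kidney none passed. None of 20 genes of branched-chain amino acid oxidation was called in the difference, beside 4.68% of all genes tested.

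Of 10 ketone body genes, 2 were called in the difference (20%, beside 4.68% of all genes tested), both negative, and 1 of these is described here. Bdh2, a cytosolic dehydrogenase named for ketone bodies, had 0.06102, 0.205 and 0.152 CPM in ketogenic hearts, against 0.749, 1.09 and 2.41 CPM in chow hearts. Kidney levels of Bdh2 were 171, 184 and 171 CPM on the ketogenic diet, against 144, 152 and 138 CPM on chow; its difference of -3.68 (SE 0.60, adjusted p = 0.00641) came from a gene near the limit of detection in heart. Oxct1, an enzyme of ketone use, fell in heart (log2 fold change -0.46) and did not pass in kidney (-0.27). Its difference of -0.19 (95% interval -0.62 to 0.25) was not called. Bdh1 passed in neither organ, and its difference of 0.40 (95% interval -0.40 to 1.21) was not called.

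The most positive difference among genes expressed in both organs was that of Scn4b, a beta subunit of voltage-gated sodium channels. It had 198, 196 and 169 CPM in ketogenic hearts, against 13.7, 8.96 and 5.803 CPM in chow hearts. Kidney levels of Scn4b were 47.5, 49.7 and 44.7 CPM on the ketogenic diet, against 44.5, 45.8 and 46.9 CPM on chow. The ketogenic hearts all lay far above the chow hearts, 20.04-fold by the model, the kidney groups overlapped, and the log2 difference was 4.28 (SE 0.29, 95% interval 3.63 to 4.92, adjusted p = 6.92e-05). Of 27 cardiac ion channel and calcium handling genes, 7 were called (25.9%, beside 4.68% of all genes tested), all positive. The list medians were 0.13 in heart and -0.32 in kidney. Kcnj11, the pore of the ATP-sensitive potassium channel, had 256, 247 and 267 CPM in ketogenic hearts, against 161, 184 and 177 CPM in chow hearts. Kidney levels of Kcnj11 were 0.947, 0.569 and 0.983 CPM on the ketogenic diet, against 1.65, 1.5998 and 1.16 CPM on chow; both diet effects passed, with a difference of 1.35 (adjusted p = 0.00604). The potassium channel gene Kcnd3 (0.97, adjusted p = 0.009) was called as well. Slc8a1, the sodium-calcium exchanger, and Ryr2, the calcium release channel of cardiac muscle, were called from a fall in kidney: Slc8a1 had 464, 371 and 313 CPM in ketogenic kidneys, against 692, 768 and 587 CPM in chow kidneys, with a heart log2 fold change of 0.13 (adjusted p of the difference 0.0168), while Ryr2 lay below 10 CPM in every kidney (difference 0.99, adjusted p = 0.0245; 0.0632 with the pair summed). The L-type calcium channel gene Cacna1c was called too (0.79, adjusted p = 0.0323).

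Ano5, an anoctamin membrane protein of muscle, had 3.36, 2.999 and 1.29 CPM in ketogenic hearts, against 0.437, 0.384 and 0.139 CPM in chow hearts. Kidney levels of Ano5 were 6.26, 7.51 and 7.49 CPM on the ketogenic diet, against 12.97, 11.004 and 9.34 CPM on chow, and the difference of the effects was 3.70 (SE 0.50, adjusted p = 0.00236). Cox6b2, known as the testis form of a cytochrome oxidase subunit, had 3.29, 3.61 and 3.65 CPM in ketogenic hearts, against 0.811, 1.02 and 0.882 CPM in chow hearts. Kidney levels of Cox6b2 were 4.16, 4.61 and 6.22 CPM on the ketogenic diet, against 8.52, 8.77 and 6.801 CPM on chow. Its groups separated in opposite directions in heart and kidney, with a difference of 2.63 (SE 0.29, adjusted p = 0.000583). Serinc2 differed by 2.11 (adjusted p = 0.00284) from levels of at most 1.90 CPM in hearts. Among genes below 1 CPM on average in kidney, Chrna2, a nicotinic acetylcholine receptor subunit, had 34.4, 31.3 and 24.6 CPM in ketogenic hearts, against 1.56, 2.305 and 1.11 CPM in chow hearts, and at most 0.582 CPM in any kidney; its difference was 4.09 (SE 0.63, adjusted p = 0.00409). Cacna1s, the skeletal muscle calcium channel gene, was called with a log2 fold change of 1.75 in heart and -0.95 in kidney (difference 2.70, adjusted p = 0.00872). Kbtbd10 and Sh3bgr had differences of 1.45 and 1.56 (adjusted p = 0.00836 and 0.00904) that lay mainly on the kidney side. Their log2 fold changes were 0.34 and 0.04 in heart and -1.11 and -1.52 in kidney, where levels of these 3 genes were at most 1.21 CPM.

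Among the 37 genes that rose in heart and fell in kidney, Impa2, an inositol monophosphatase, had the smallest p of the difference. It had 55.5, 56.99 and 55.3 CPM in ketogenic hearts, against 22.6, 24.6 and 19.96 CPM in chow hearts. Kidney levels of Impa2 were 9.31, 7.51 and 9.17 CPM on the ketogenic diet, against 13.99, 15.7 and 14.6 CPM on chow, so that the diet groups were apart in both organs, higher on the ketogenic diet in heart and lower in kidney. Its log2 fold changes were 1.32 in heart and -0.76 in kidney and the difference 2.09 (SE 0.14, adjusted p = 2.43e-05). Slc40a1, the iron exporter ferroportin, had 49.9, 50.1 and 45.6 CPM in ketogenic hearts, against 30.6, 27.3 and 30.8 CPM in chow hearts. Kidney levels of Slc40a1 were 73.3, 69.6 and 61.2 CPM on the ketogenic diet, against 98.7, 85.8 and 86.8 CPM on chow, and the difference of the effects was 1.12 (SE 0.12, adjusted p = 0.000583). Ptp4a3 (a tyrosine phosphatase), Rps6ka2 (a ribosomal S6 kinase), Pde3a (a cyclic nucleotide phosphodiesterase) and Dusp18 (a dual-specificity phosphatase) took the same directions, with differences of 1.56, 1.14, 1.08 and 0.92; their adjusted p were 0.000583, 0.000593, 0.000583 and 0.000583.

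In the reverse sense, Gpx1, the main glutathione peroxidase, fell in heart and rose in kidney. It had 50.9, 51.5 and 63.2 CPM in ketogenic hearts, against 111, 116 and 160.4 CPM in chow hearts. Kidney levels of Gpx1 were 1704, 2064 and 2034 CPM on the ketogenic diet, against 1449, 1228 and 1340.5 CPM on chow. The groups did not overlap in either organ, and the difference was -1.76 (SE 0.21, adjusted p = 0.000926). Glrx, which reverses glutathionylation of proteins, had 21.5, 23.2 and 25.99 CPM in ketogenic hearts, against 31.6, 29.6 and 32.5 CPM in chow hearts. Kidney levels of Glrx were 25.5, 28.9 and 26.7 CPM on the ketogenic diet, against 18.4, 17.6 and 16.4 CPM on chow, and the difference of the effects was -1.04 (SE 0.13, adjusted p = 0.00112). Adcy7 (an adenylyl cyclase), Itih5 (a hyaluronan-binding protein) and Ddt (a tautomerase) fell in heart and rose in kidney, with differences of -1.42, -1.29 and -0.74 and adjusted p of 0.000743, 0.000583 and 0.00254. Edem1, of endoplasmic reticulum quality control, did the same (-0.48 in heart, 0.48 in kidney, adjusted p of the difference 0.00483). Of 25 antioxidant and NRF2 genes, Gpx1 and Cat were the 2 called (8%, beside 4.68% of all genes tested), in opposite senses. The list's median difference was 0.01.

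Other negative differences came with a rise in kidney. Cyp7b1, an oxysterol hydroxylase, had 0.976, 0.477 and 0.532 CPM in ketogenic hearts, against 1.31, 0.9603 and 1.21 CPM in chow hearts. Kidney levels of Cyp7b1 were 83.5, 137 and 128 CPM on the ketogenic diet, against 17.9, 10.4 and 13.1 CPM on chow, so that ketogenic levels were 8.43 times those on chow, and the difference was -3.85 (SE 0.54, adjusted p = 0.00349). Cyp4b1 rose in both organs and was the 1 gene called in the same direction that moved further in kidney (0.89 in heart, 2.51 in kidney, adjusted p of the difference 0.0225, or 0.0582 with the pair summed). Of 20 steroid and drug hydroxylases tested, 10 rose and none fell in kidney (5.16% of all genes tested rose). In heart 2 rose (12.5% of all). Only Cyp7b1 and Cyp4b1 were called in the difference (10%, beside 4.68% of all). Of the 20 genes, 16, Cyp7b1 among them, had a mean under 1 CPM in an organ. The 6 proximal tubule markers summed to 23496, 33247 and 31045 CPM in ketogenic kidneys, against 22943, 22861 and 21075 CPM in chow kidneys. None of the 6 was called in either organ or in the difference, and their part in the kidney changes was not tested. Errfi1, a feedback inhibitor of the EGF receptor, had 25.99, 25.6 and 19.9 CPM in ketogenic hearts, against 30.9, 32.5 and 37.8 CPM in chow hearts. Kidney levels of Errfi1 were 372, 509 and 464 CPM on the ketogenic diet, against 194, 271 and 213 CPM on chow, and the difference of the effects was -1.49 (SE 0.22, adjusted p = 0.00349). Hsd11b1, which regenerates active glucocorticoid, had the opposite sign (1.19, adjusted p = 0.0106), with a rise in heart of 1.04. Osta, a subunit of an organic solute transporter, fell in heart, where its highest level was 1.92 CPM, and rose in kidney (difference -3.17, adjusted p = 0.00777).

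Ugt1a7c, a glucuronosyltransferase, had 2.38, 1.77 and 2.96 CPM in ketogenic hearts, against 4.305, 5.76 and 5.06 CPM in chow hearts. Kidney levels of Ugt1a7c were 482, 628 and 582 CPM on the ketogenic diet, against 275, 300.2 and 265 CPM on chow, and the difference of the effects was -2.10 (SE 0.23, adjusted p = 0.000583). Ugt1a6a, Ugt1a6b and Ugt1a9 gave differences between -2.06 and -1.97, but the genes of this locus share their last exons and reads were split between them, so the 4 values are not independent and each is uncertain. Several of the most negative differences rested on low or uneven heart levels. Krt8, a keratin of epithelia, had 0.427, 0.341 and 0.912 CPM in ketogenic hearts, against 1.31, 2.43 and 5.71 CPM in chow hearts (difference -2.80, adjusted p = 0.0401). Abat, a GABA transaminase, had 3.78, 4.36 and 4.79 CPM in ketogenic hearts, against 10.9, 11.3 and 34.1 CPM in chow hearts (difference -2.27, adjusted p = 0.0444), with chow heart replicate 3 alone above 12 CPM and a difference of -1.49 without it. Ifi27l2a (-2.37), Slc4a1 (-2.22), Chst11 (-1.98) and Emilin2 (-1.94) completed the most negative. None of these 6 genes passed with the pair summed, where their adjusted p lay between 0.0765 and 0.0961. Slc6a19, an amino acid transporter of the proximal tubule, had no count in the 3 ketogenic hearts and 2 to 5 counts in chow hearts, so its called difference carries no usable fold.

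Most clock genes moved the same way in both organs. Of 19 circadian clock genes, 13 rose and 3 fell in heart (12.5% and 11.1% of all genes tested did). In kidney 13 rose and 3 fell (5.16% and 5.13% of all). In both organs 12 rose and 3 fell, and no difference was called, beside 4.68% of all genes tested. The list's medians were 0.82 in heart, 0.65 in kidney and 0.15 for the difference. Arntl, the activator of the loop, had 6.77, 5.93 and 5.699 CPM in ketogenic hearts, against 33.9, 26.3 and 24.5 CPM in chow hearts. Kidney levels of Arntl were 3.79, 4.67 and 4.68 CPM on the ketogenic diet, against 15.5, 13.7 and 12.3 CPM on chow. The diet groups were apart in both organs, lower on the ketogenic diet, and the difference was -0.54 (95% interval -1.002 to -0.08, adjusted p = 0.18). Npas2, which pairs with Arntl, fell, with log2 fold changes of -1.34 in heart and -1.502 in kidney. Dbp, an output gene, rose by 2.05 in heart and 1.601 in kidney (difference 0.45, 95% interval -0.41 to 1.32), and the repressor Per2 by 2.40 and 1.58 (difference 0.82, 95% interval -0.15 to 1.78, adjusted p = 0.33). Without chow heart replicate 3 and ketogenic kidney replicate 1, the differences of Arntl (-0.71, adjusted p = 0.0444) and Per2 (1.598, adjusted p = 0.00288) passed. The labels used here give no hour of tissue collection.

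The clock activator is known to bind the E-box CACGTG. These letters, which read the same on both strands, stood within 250 bases upstream of the start in 5 of the 16 clock genes that had an entry in the RefSeq promoter table (31.2%), against 6.86% of all 27025 genes in it; a match is a description and not a site. The 5 were Per1, Cry1, Tef, Bhlhe41 and Gm129 (Ciart in RefSeq), and neither Arntl nor Dbp was among them. Shown are 3 of them that rose in both organs, on build GRCm38.p6, with CACGTG in capitals: Tef on the + strand at chr15:81802423-81802672, Bhlhe41 on the - strand at chr6:145865421-145865670 and Gm129 on the - strand at chr3:95882229-95882478, each written along its gene's strand.
Tef upstream: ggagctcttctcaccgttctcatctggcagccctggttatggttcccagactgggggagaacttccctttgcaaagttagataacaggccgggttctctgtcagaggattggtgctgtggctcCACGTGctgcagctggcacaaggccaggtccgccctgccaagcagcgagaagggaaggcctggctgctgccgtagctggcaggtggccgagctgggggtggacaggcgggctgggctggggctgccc
Bhlhe41 upstream: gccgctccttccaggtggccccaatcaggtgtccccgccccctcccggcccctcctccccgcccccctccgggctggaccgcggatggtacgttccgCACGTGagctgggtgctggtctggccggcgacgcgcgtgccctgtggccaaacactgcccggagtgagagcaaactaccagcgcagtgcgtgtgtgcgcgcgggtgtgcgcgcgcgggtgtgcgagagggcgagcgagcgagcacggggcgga
Gm129 upstream: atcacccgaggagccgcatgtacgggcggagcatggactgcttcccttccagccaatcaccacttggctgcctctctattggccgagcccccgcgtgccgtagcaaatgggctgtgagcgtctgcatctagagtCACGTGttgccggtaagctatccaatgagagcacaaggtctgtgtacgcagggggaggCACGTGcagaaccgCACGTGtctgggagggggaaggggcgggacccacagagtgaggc

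Beside these sequences, Tef, a transcription factor of clock output, had 162, 157 and 154 CPM in ketogenic hearts, against 63.5, 69.5 and 83.4 CPM in chow hearts. Kidney levels of Tef were 268, 275 and 289 CPM on the ketogenic diet, against 129, 169 and 149 CPM on chow. Its log2 fold changes were 1.13 in heart and 0.90 in kidney (difference 0.23, 95% interval -0.10 to 0.57). Bhlhe41, a clock repressor, had 49.9, 47.2 and 47.3 CPM in ketogenic hearts, against 17.2, 18.9 and 16.1 CPM in chow hearts. Kidney levels of Bhlhe41 were 6.57, 3.7001 and 4.21 CPM on the ketogenic diet, against 1.65, 1.07 and 2.27 CPM on chow, with fold changes of 1.47 and 1.53 on the log2 scale. Gm129, a repressor of the clock activator with 3 copies of the letters in its window, had 9.64, 8.11 and 7.903 CPM in ketogenic hearts, against 0.437, 1.02 and 0.557 CPM in chow hearts. Kidney levels of Gm129 were 8.94, 5.46 and 9.55 CPM on the ketogenic diet, against 0.484, 1.89 and 1.39 CPM on chow. Its level rose by 3.68 in heart and 2.67 in kidney (difference 1.01, 95% interval -0.24 to 2.26). In all 3 genes the diet groups were apart in both organs. Cry1, which also holds the letters, moved by -0.45 and 0.15, and neither passed.

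**Figure D5:**
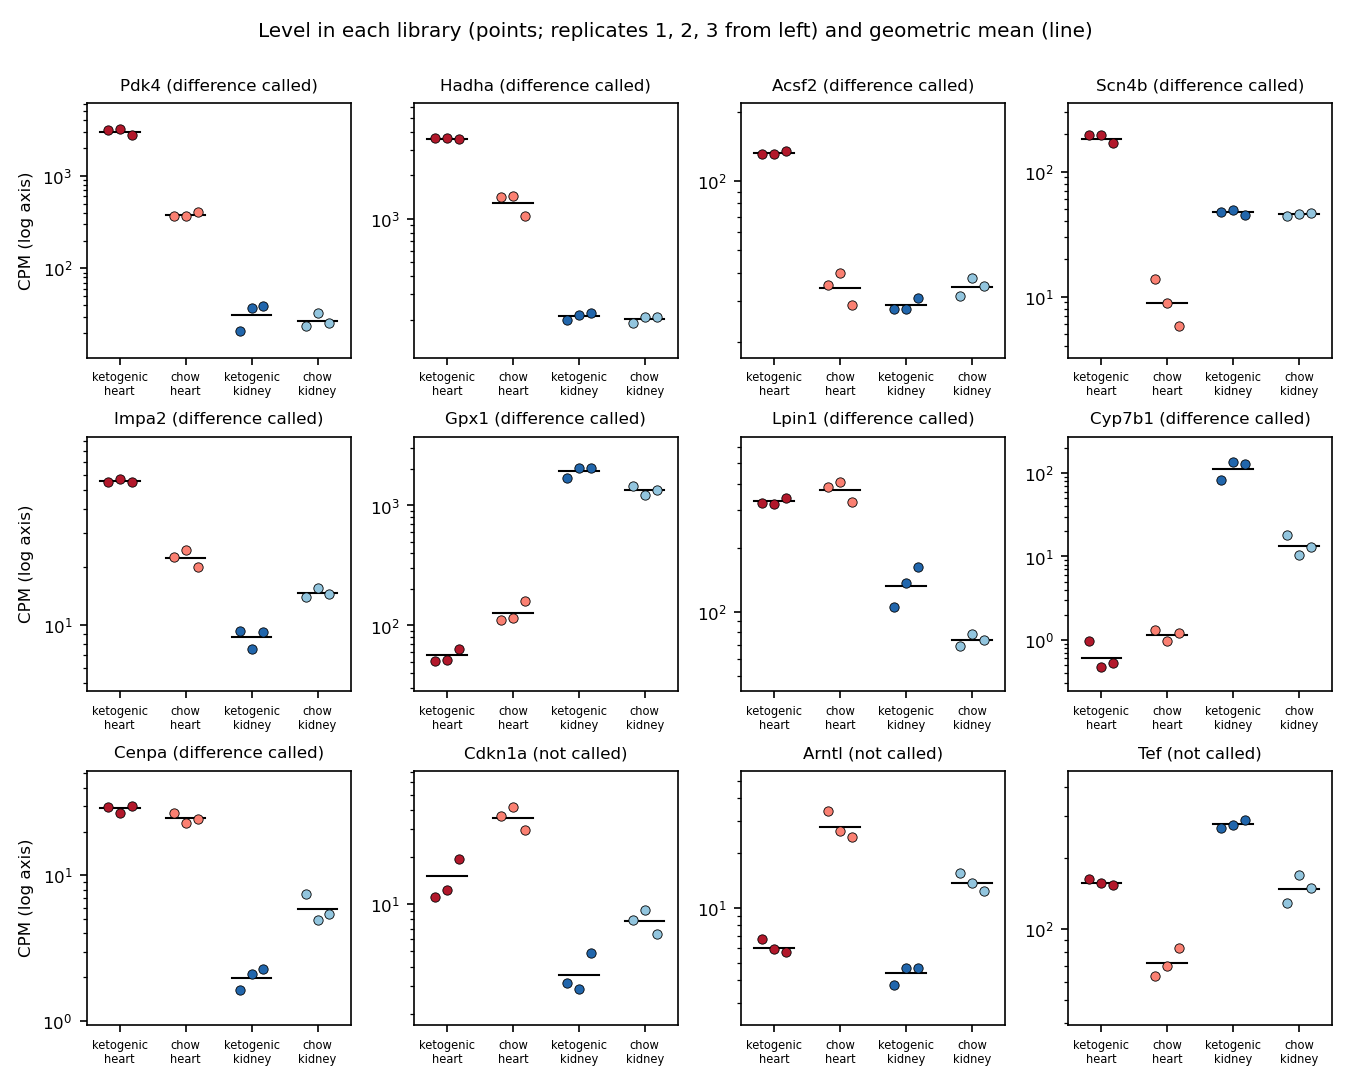
Level of 12 genes in each of the 12 libraries, in CPM on a log axis, with points for replicates 1, 2 and 3 from the left and lines at geometric means (ketogenic heart replicates 1 and 2 counted as 1), for ketogenic heart, chow heart, ketogenic kidney and chow kidney. Pdk4, Hadha and Scn4b separated the diets in heart, and Lpin1, Cyp7b1 and Cenpa in kidney. Acsf2, Impa2 and Gpx1 separated them in opposite directions in the organs, though the kidney change of Acsf2 did not pass. Cdkn1a, Arntl and Tef separated them in the same direction in both.

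Genes of cell division fell in both organs. Of 39 proliferation genes, 36 fell in heart (11.1% of all genes tested did) and 36 in kidney (5.13% of all), with medians of -2.48 and -2.22. The difference was called for 2 (5.13%), near the share of all genes tested (4.68%). Mki67 fell, with log2 fold changes of -2.28 in heart and -2.55 in kidney (difference 0.27, 95% interval -1.35 to 1.88) and Top2a fell likewise, with -2.76 and -2.53 (difference -0.23, 95% interval -1.74 to 1.29). The 2 called genes were Cenpf and Cenpa, which encode centromere proteins. Cenpf had 131, 141 and 62.8 CPM in ketogenic hearts, against 54.3, 54.1 and 38.1 CPM in chow hearts. Kidney levels of Cenpf were 1.53, 2.39 and 3.42 CPM on the ketogenic diet, against 19.6, 22.2 and 13.9 CPM on chow; it rose in heart and fell in kidney, a difference of 4.10 (SE 0.51, adjusted p = 0.00288). Cenpa had 29.5, 26.9 and 30.1 CPM in ketogenic hearts, against 26.95, 23.05 and 24.4 CPM in chow hearts. Kidney levels of Cenpa were 1.63, 2.11 and 2.29 CPM on the ketogenic diet, against 7.404, 4.94 and 5.46 CPM on chow, overlapping in heart and apart in kidney, a difference of 1.77 (SE 0.22, adjusted p = 0.00125). Sgol2, which guards cohesin at centromeres and is outside the list, rose in heart and fell in kidney. It had 23.7, 24.4 and 26.8 CPM in ketogenic hearts, against 15.04, 16.3 and 9.19 CPM in chow hearts. Kidney levels of Sgol2 were 0.631, 0.683 and 0.749 CPM on the ketogenic diet, against 3.44, 3.25 and 2.498 CPM on chow (difference 3.03, SE 0.32, adjusted p = 0.000583).

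Of 30 DNA replication genes, 16 fell in heart (11.1% of all genes tested did) and 18 in kidney (5.13% of all). The difference was called for 5 (16.7%, beside 4.68% of all). Tyms, which makes thymidylate, fell in heart and did not pass in kidney, with 1.59, 1.704 and 1.8998 CPM in ketogenic hearts, against 6.49, 6.15 and 5.29 CPM in chow hearts. Kidney levels of Tyms were 11.8, 16.6 and 17.5 CPM on the ketogenic diet, against 20.95, 19.9 and 16.1 CPM on chow (difference -1.48, SE 0.25, adjusted p = 0.0071). Dut, Pole, Mcm4 and Mcm2 fell in kidney and did not pass in heart, with differences of 0.68, 1.41, 0.62 and 0.69 and adjusted p of 0.0182, 0.0218, 0.0363 and 0.0457; Mcm4 did not pass with the pair summed (0.0655). Of 34 extracellular matrix genes, 26 fell in heart and 20 in kidney (11.1% and 5.13% of all genes did), and none rose. Fibroblast markers moved with them: 11 such genes summed to between 2001 and 2179 CPM in ketogenic hearts, against 4108 to 6258 CPM in chow hearts. Their sums were 359 to 560 CPM in ketogenic kidneys, against 1182 to 1873 CPM in chow kidneys. Of the 11, 6 fell in heart and 5 in kidney, with medians of -0.99 and -0.76, none was called in the difference, and their part in the matrix changes was not tested. Col1a1 had 331, 308 and 227 CPM in ketogenic hearts, against 650.2, 759.6 and 1203 CPM in chow hearts. Kidney levels of Col1a1 were 58.9, 51.5 and 106 CPM on the ketogenic diet, against 562, 331 and 299.8 CPM on chow, and the difference of the effects was 0.87 and was not called (95% interval -0.21 to 1.95). Col3a1 fell, with log2 fold changes of -1.87 in heart and -2.21 in kidney (difference 0.34, 95% interval -0.56 to 1.24). The 3 called matrix genes (8.82%, beside 4.68% of all) were Plod2, a collagen lysyl hydroxylase (0.95, adjusted p = 0.00173), Thbs2 (1.09, adjusted p = 0.0464) and Col18a1 (-1.06, adjusted p = 0.0388). Col18a1 and Thbs2 were lost with the pair summed (0.0742 and 0.0966).

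Few of the p53 and senescence genes that the series title points to were called in the difference, and so were few of all genes (4.68%). Of 33 p53 targets tested, 3 rose and 9 fell in heart (12.5% and 11.1% of all genes tested did). In kidney 1 rose and 6 fell (5.16% and 5.13% of all). The difference was called for 1 (3.03%, beside 4.68% of all). Cdkn1a, the cell-cycle inhibitor p21, had 11.1, 12.3 and 19.5 CPM in ketogenic hearts, against 36.4, 41.4 and 29.6 CPM in chow hearts. Kidney levels of Cdkn1a were 3.16, 2.903 and 4.91 CPM on the ketogenic diet, against 7.99, 9.16 and 6.43 CPM on chow. It stood lower on the ketogenic diet in every library of both organs, and its difference was -0.24 (95% interval -1.01 to 0.53, adjusted p = 0.77). Mdm2, the inhibitor of p53 that p53 itself induces, had log2 fold changes of 0.08 in heart and 0.08 in kidney (95% interval of the difference -0.19 to 0.20), and Ccng1 and Trp53inp1 were not called in either organ or in the difference (0.44 and -0.12). The called target was Gadd45a, a DNA damage response gene, with 25.9, 26.9 and 23.8 CPM in ketogenic hearts, against 17.7, 15.3 and 15.8 CPM in chow hearts. Kidney levels of Gadd45a were 17.5, 27.3 and 25.1 CPM on the ketogenic diet, against 25.8, 29.3 and 27.3 CPM on chow (difference 0.89, adjusted p = 0.0243; 0.0548 with the pair summed). Of 12 cell-cycle inhibitors and retinoblastoma family genes, 1 was called (8.33%). This was Cdkn1c, the inhibitor p57, which fell in kidney and did not pass in heart (difference 0.72, SE 0.14, adjusted p = 0.0158). Cdkn2a had too few counts to be tested. Of 27 senescence-secreted factors, 1 was called (3.7%), Igfbp7. It had 148, 142 and 138 CPM in ketogenic hearts, against 316, 306 and 319 CPM in chow hearts. Kidney levels of Igfbp7 were 925, 774 and 786 CPM on the ketogenic diet, against 963, 1035 and 959 CPM on chow (difference -0.89, SE 0.12, adjusted p = 0.00255).

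Of 24 insulin and FOXO genes, 4 were called (16.7%, beside 4.68% of all genes tested), all positive (2.64% of all). Pik3r1, a regulatory subunit of PI3-kinase, had 266, 271 and 309 CPM in ketogenic hearts, against 186, 189 and 193 CPM in chow hearts. Kidney levels of Pik3r1 were 126, 109.9 and 111 CPM on the ketogenic diet, against 139, 126 and 135 CPM on chow; the heart groups were apart, the kidney groups overlapped, and the difference was 0.78 (SE 0.12, adjusted p = 0.0037). Txnip, which restrains glucose uptake, Foxo4 and the ubiquitin ligase gene Fbxo32 differed by 1.31, 0.49 and 0.67 (adjusted p = 0.0132, 0.0222 and 0.0443; Fbxo32 0.0654 with the pair summed). Of 18 PPAR, ERR and PGC-1 regulators, 2 were called (11.1%, beside 4.68% of all genes tested), both positive. Esrrg, an orphan receptor of mitochondrial genes, was 1 of them (0.60, adjusted p = 0.0165). The other was Ppard, which fell in kidney with 17.8, 18.2 and 23.5 CPM in ketogenic kidneys, against 39.2, 39.4 and 27.3 CPM in chow kidneys. Its log2 fold change in heart was 0.01 (adjusted p of the difference 0.03, or 0.0652 with the pair summed). Of 20 integrated stress response genes, 2 were called (10%, beside 4.68% of all genes tested), Vldlr and Stc2, both positive. The list's median difference was -0.18, and 8 of the 20 differences were above 0. Stc2 fell in kidney with 1.95, 1.31 and 1.78 CPM in ketogenic kidneys, against 3.73, 5.28 and 4.904 CPM in chow kidneys (difference 1.72, SE 0.26, adjusted p = 0.00365). In the lipid synthesis lists Fdft1 (squalene synthase) differed by 1.25 (adjusted p = 0.00283), Sqle by -1.14 (0.0401) and Fads2 by -0.93 (0.0267), the last 2 lost with the pair summed (0.0838 and 0.0648). None of 30 interferon response genes and none of 24 proteasome subunits was called in the difference, beside 4.68% of all genes tested.

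Markers of other cell types also moved with the diet, in heart those of macrophages and red cells. The summed level of 11 macrophage markers lay between 431 and 441 CPM in ketogenic hearts, against 679 to 775 CPM in chow hearts, and between 123 and 149 CPM in ketogenic kidneys, against 139 to 150.3 CPM in chow kidneys. Of those 11 macrophage genes, 9 fell in heart and none in kidney (11.1% and 5.13% of all genes tested fell). The difference was called for 2 (18.2%, beside 4.68% of all), C1qa (-0.87, adjusted p = 0.0104) and Lyz2 (-0.97, adjusted p = 0.0307). With ketogenic heart replicates 1 and 2 summed, Lyz2 no longer passed (adjusted p = 0.0844). The part of macrophages in the other negative differences was not tested. The summed level of 9 erythroid genes lay between 1280.2 and 3013 CPM in ketogenic hearts, against 5200.1 to 7431 CPM in chow hearts, and all 9 fell in heart; in kidneys the sums were 277 to 805 CPM in ketogenic and 587 to 993 CPM in chow libraries. Slc4a1, the anion exchanger of red cells and of the collecting duct, was the 1 called. Adipocyte markers, 11 genes, summed to between 491 and 534 CPM in ketogenic hearts, against 460 to 809 CPM in chow hearts, and to 562, 109 and 587 CPM in ketogenic kidneys, against 63.9, 196 and 188 CPM in chow kidneys. No adipocyte gene was called in the difference, Plin1 (-6.31, adjusted p = 0.24) and Adipoq (-7.19, adjusted p = 0.20) included. Without chow heart replicate 3 the differences of Plin1 and Adipoq were -0.65 and -1.32. Fat-cell RNA varied within groups, and its part in the differences of lipid genes was not tested. Without chow heart replicate 3 and ketogenic kidney replicate 1, the log2 differences of Hadha, Pdk4, Acsf2 and Fabp3 were 1.23, 2.58, 2.07 and 1.57. With all 12 libraries they were 1.40, 2.75, 2.21 and 1.46. Their adjusted p without the 2 libraries were 3.67e-06, 3.9e-07, 1.89e-07 and 2.19e-06, in a fit that called 1637 genes against 707. Ketogenic kidney replicate 3, with the highest sum among kidneys, stayed in that fit. In kidney, 6 distal nephron and collecting duct markers summed to 6388, 4330 and 4061 CPM in ketogenic kidneys, against 6337, 6007 and 6827 CPM in chow kidneys, and 1 of the 6 fell.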

How the data were processed

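Stranded messenger RNA libraries of tissue with an RNA integrity number above 4 were sequenced, per the labels' protocols. Per the submitters' processing notes the tools included featureCounts 1.5.0 and HISAT2 2.1.0, beside bcl2fastq and SAMtools. Per the file headers, read pairs were counted per gene over exons of the UCSC mm9 annotation, with a minimum mapping quality of 2 and reads of several places or genes split into fractions. What was deposited are thus estimated counts. Non-whole values belonged to genes that held 46.2 to 59.1% of a library's count, so similar genes can exchange reads. From them, counts were rounded to whole numbers (at most 0.000870% of a total) and fitted in 1 model of 4 groups with edgeR 4.0.16 (filterByExpr, TMM, robust quasi-likelihood, R 4.3.3) without a block. Adjusted p-values are Benjamini-Hochberg over 15103 genes, from edgeR unless another tool is named, and a gene was called under 0.05. CPM were scaled to effective library sizes. Intervals are 95% and rest on libraries that the labels call biological replicates.

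The labels named the groups. Members and gene lists were chosen with earlier results of these data known. The text names 22 fixed genes, the 10 most positive and 10 most negative called differences among genes at 4 CPM or more overall and 1 CPM in each organ (predicted and read-sharing genes left out), the 8 opposite calls of smallest p on each side, 4 genes low in each organ, up to 4 called genes per list and 4 genes of library composition, of which Sln had too few counts to be tested. Acadm, Decr1, Ech1, Mlycd, Aldh3a2, Cacna1c, Slc8a1, Mcm2 and uncalled members such as Acads, Acad11, Slc22a5, Acaca, Pdk2, Tef, Bhlhe41, Gm129 and Cry1 were named after their values were seen. A few further genes are left out here. The steps were tested on simulated data. Alternatives were other scalings, filters, thresholds and prior counts, DESeq2 1.42.0, limma-voom 3.58.1, all 18 libraries, a replicate block, leaving out each library, summing the near-identical pair and leaving out the 2 libraries that stood apart. Coordinates and upstream sequences are RefSeq's on GRCm38.p6 and were matched by symbol.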

Additional observations from a re-analysis of the deposited data

Results flagged for a closer look

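The results below drew attention because a diet effect in one organ differed from the same effect in the other by a test of the difference itself, the contrast of log2 fold changes in heart and kidney. This held for 707 genes, and for 101 of the 121 tested genes that the naming rule gave and that are reported here. Values are log2 fold changes in heart minus those in kidney, so a positive value means a higher diet effect in heart. Among the leading positive genes the log2 differences were Scn4b 4.28, Cenpf 4.10, Ano5 3.70, Sgol2 3.03, Pdk4 2.75, Cox6b2 2.63, Fbp2 2.30, Acsm5 2.29 and Acsf2 2.21. A further value was Serinc2 2.11. Among the leading negative genes the log2 differences were Emilin2 -1.94, Ugt1a9 -1.97, Chst11 -1.98, Ugt1a6b -2.01, Ugt1a6a -2.06, Ugt1a7c -2.10, Slc4a1 -2.22, Abat -2.27 (-1.49 without chow heart replicate 3) and Ifi27l2a -2.37. A further value was Krt8 -2.80. Among genes with opposite calls the log2 differences were Impa2 2.09, Ptp4a3 1.56, Rps6ka2 1.14, Slc40a1 1.12, Pde3a 1.08, Dusp18 0.92, Ddt -0.74, Glrx -1.04 and Itih5 -1.29. Further values were Adcy7 -1.42 and Gpx1 -1.76. Among genes low in one organ the log2 differences were Chrna2 4.09, Cacna1s 2.70, Sh3bgr 1.56, Kbtbd10 1.45, Depdc1b -3.12, Osta -3.17, Bdh2 -3.68 and Cyp7b1 -3.85. Among fuel and lipid genes the log2 differences were Acot1 2.07, Acot2 1.75, Fabp3 1.46, Gpam 1.45, Pfkfb1 1.41, Hadha 1.40, Pdk1 1.34, Acacb 1.32 and Fdft1 1.25. Further values were Cpt1b 1.24, Pex11a 1.16, Hadhb 1.07, Acaa2 0.96, Acsl1 0.94, Slc27a1 0.88, Vldlr 0.86, Ppard 0.84 and Crat 0.80. Further values were Slc25a20 0.78, Idh2 0.67, Cat 0.65, Esrrg 0.60, Pfkl 0.55, Pex6 0.52, Plin3 0.47, Fads2 -0.93 and Slc25a10 -0.93. Further values were Lpin1 -1.05 and Sqle -1.14. Among signalling, stress and growth genes the log2 differences were Cenpa 1.77, Stc2 1.72, Pole 1.41, Txnip 1.31, Hsd11b1 1.19, Thbs2 1.09, Plod2 0.95, Gadd45a 0.89 and Pik3r1 0.78. Further values were Cdkn1c 0.72, Dut 0.68, Fbxo32 0.67, Mcm4 0.62, Foxo4 0.49, Xbp1 -0.51, Igfbp7 -0.89, Edem1 -0.96 and Col18a1 -1.06. Further values were Tyms -1.48 and Errfi1 -1.49. Among organ and cell type genes the log2 differences were Slc5a1 1.496, Kcnj11 1.35, Ryr2 0.99, Kcnd3 0.97, Synpo 0.96, Des 0.84, Myom2 0.63, C1qa -0.87 and Lyz2 -0.97. Further values were Ptprc -1.01, Atp6v0a4 -1.29, Cyp4b1 -1.62 and Slc6a19 -5.44 (fitted with no count in ketogenic hearts, which gives no bound). None of the values changed sign under any setting tried. Of the 101 genes, 67 passed whichever single library was left out, 73 passed with ketogenic heart replicates 1 and 2 summed and 94 passed without chow heart replicate 3 and ketogenic kidney replicate 1.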

How the results depend on the processing

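The number of genes called in the difference was 684 with RLE size factors, 728 with total counts, 740 with TMM within each organ, 630 with no filter, 718 with a stricter filter, 825 over genes at 1 CPM in both organs, 589 with limma-voom, 707 with a prior count of 1 and 842 with all 18 libraries, against 707 as reported. Total-count scaling moved the median log2 fold change of all genes to -0.18 in heart and -0.09 in kidney, and positive differences made up 42.99% of the calls, against 56.3%; genes that rose made up 21.4% of heart calls and 25.03% of kidney calls, against 53.02% and 50.2%. DESeq2 called 1204 genes. Against a 1.5-fold change 65 differences, 361 heart effects, 181 kidney effects and 0 opposite calls passed. At an adjusted p under 0.1 there were 1291 differences, 2531 kidney effects and 153 opposite calls. With ketogenic heart replicates 1 and 2 summed there were 361 differences, 2364 heart effects, 1189 kidney effects and 49 opposite calls. Without chow heart replicate 3 and ketogenic kidney replicate 1 there were 1637 differences, 3841 kidney effects and 256 opposite calls. Leaving out 1 library gave 338 to 1098 differences, 2232 to 3925 heart effects, 571 to 2407 kidney effects and 32 to 162 opposite calls. The lowest number of differences came without ketogenic heart replicate 2 and the highest without ketogenic kidney replicate 1, and 286 of the 707 genes (40.5%) passed in every such fit. The cause of these shifts was not tested.

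With the replicate number as a block 483 differences passed, 464 of them among the 707, and with a replicate block within diet 408. Same-numbered heart and kidney libraries deviated from their group means with correlations of -0.09, 0.01 and -0.15 on the ketogenic diet and 0.15, 0.11 and 0.10 on chow and so were not positive in every pair, and the labels do not say whether they share an animal; each chow heart correlated best with the kidney of its own number, and ketogenic hearts did not. A difference that was not called at 3 libraries a group is not shown to be absent.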
